A study of Mus musculus with 8 samples.

Results

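The mitosis and spindle genes described here are 40 mouse genes of the G2 and M phases of the cell cycle, chosen as a fixed list of symbols, and all 40 were found under 1 Ensembl identifier each among the 49315 identifiers of the count tables. The samples are 8 RNA-seq libraries of whole esophagus, 5 from control mice on untreated water and 3 from mice whose drinking water held 0.5% of the household detergent SDS (sodium dodecyl sulfate). All 8 libraries are labelled WT and day 14, which is the length of the SDS exposure. The labels used here name no strain, sex or age and do not say that each library is 1 mouse, so p-values measure the spread between libraries, which may in part be technical. The treatment text speaks of esophagus homogenates, while the extraction text speaks of cell pellets. Library totals lay between 22033866 and 29802362 counts, and every one of the 40 genes passed the filter on low counts, with at least 35 counts in each library.

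A cell enters mitosis when cyclins A and B activate the kinase Cdk1. Chromosomes then attach to spindle microtubules through kinetochores, the spindle checkpoint delays separation until attachment is complete, and the anaphase-promoting complex ends mitosis by marking cyclins and securin for degradation. In the stratified squamous epithelium of the mouse esophagus, dividing keratinocytes sit in the basal layer, which makes the keratins Krt5 and Krt14; the gut wall also holds muscle, fibroblasts, vessels and immune cells that can divide. In bulk tissue, more dividing cells and more mitotic RNA per cell cannot be told apart.

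Many mitotic genes share a promoter arrangement in which a CHR element (cell cycle genes homology region) near the start of transcription is accompanied by CCAAT boxes, and genes of this kind are kept silent in resting cells and switched on in G2. RefSeq promoter windows of build GRCm38.p6, 250 bases before to 50 bases after a start, were at hand for 34 of the 40 genes; Ccna2, Foxm1, Aurkb, Incenp, Tpx2 and Kif20a had none. The letters searched on both strands were TTTGAA or TTCGAA for the CHR, CCAAT for the CCAAT box and TTGGCG or TTCGCG for an E2F core. TTCGAA is its own reverse complement, and an E2F core written TTGGCG can overlap a reversed CCAAT box. Stretches of 10 genes are printed 5′ to 3′ on the strand of the gene, from 120 bases before the start to 30 bases from the start on, with CHR and CCAAT letters in capitals (TTCAAA and ATTGG are the same elements on the opposite strand). The first 8 genes come from 6 of the 9 roles described further on, and Ube2c and Pttg1 are shown because their levels did not follow the others. No searched letters lie in the Pttg1 stretch. Its window falls inside the gene as counted (43420250 to 43426251), so the bases before that 5′ end were not searched.
Cdk1, chr10:69352883-69353032, minus strand: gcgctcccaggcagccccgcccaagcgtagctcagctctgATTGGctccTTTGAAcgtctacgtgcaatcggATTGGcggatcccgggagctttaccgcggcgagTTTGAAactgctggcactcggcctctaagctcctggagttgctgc
Ccnb2, chr9:70421525-70421674, minus strand: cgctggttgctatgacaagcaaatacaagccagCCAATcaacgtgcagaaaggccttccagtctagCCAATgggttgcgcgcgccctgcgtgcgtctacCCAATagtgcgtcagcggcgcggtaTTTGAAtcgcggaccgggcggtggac
Mki67, chr7:135716350-135716499, minus strand: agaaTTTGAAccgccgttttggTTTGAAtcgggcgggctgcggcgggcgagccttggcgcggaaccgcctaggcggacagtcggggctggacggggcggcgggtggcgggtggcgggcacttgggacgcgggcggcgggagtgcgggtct
Top2a, chr11:99024160-99024309, minus strand: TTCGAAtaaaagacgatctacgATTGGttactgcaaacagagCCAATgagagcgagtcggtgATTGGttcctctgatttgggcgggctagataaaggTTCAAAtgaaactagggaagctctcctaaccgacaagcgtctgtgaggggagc
Cenpa, chr5:30666766-30666915, plus strand: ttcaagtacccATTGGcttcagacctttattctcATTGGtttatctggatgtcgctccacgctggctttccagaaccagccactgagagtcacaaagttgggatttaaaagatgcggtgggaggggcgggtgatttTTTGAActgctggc
Ttk, chr9:83834569-83834718, plus strand: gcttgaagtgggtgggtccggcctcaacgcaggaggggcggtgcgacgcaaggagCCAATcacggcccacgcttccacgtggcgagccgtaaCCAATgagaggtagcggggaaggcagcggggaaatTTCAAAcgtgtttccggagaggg
Cdc20, chr4:118437314-118437463, minus strand: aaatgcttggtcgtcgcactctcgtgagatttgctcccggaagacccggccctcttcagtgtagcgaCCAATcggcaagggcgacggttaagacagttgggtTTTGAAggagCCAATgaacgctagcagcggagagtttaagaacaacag
Kif23, chr9:61946770-61946919, minus strand: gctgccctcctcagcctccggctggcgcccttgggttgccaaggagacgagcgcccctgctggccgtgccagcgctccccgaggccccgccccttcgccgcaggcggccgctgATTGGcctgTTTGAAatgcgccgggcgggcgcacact
Ube2c, chr2:164769809-164769958, plus strand: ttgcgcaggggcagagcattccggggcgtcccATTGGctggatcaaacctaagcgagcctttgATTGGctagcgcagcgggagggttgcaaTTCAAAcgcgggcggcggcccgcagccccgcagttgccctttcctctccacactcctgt
Pttg1, chr11:43425952-43426101, minus strand: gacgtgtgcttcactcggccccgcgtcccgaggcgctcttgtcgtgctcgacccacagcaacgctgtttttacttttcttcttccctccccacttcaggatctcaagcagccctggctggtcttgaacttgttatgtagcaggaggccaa

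A CHR was present in the windows of 27 of the 34 genes (79.4%), against 5854 of the 27025 mouse genes with a window (21.7%). CCAAT boxes were found in 26 of the 34 (76.5%) against 41.1% of all genes, and both elements in 24 (70.6%) against 8.61%. The E2F core, the element of G1 and S phase genes, was present in 8 of 34 (23.5%) against 12.1% of all genes. In a separate list of 25 DNA replication genes with a window, 6 (24.0%) held a CHR and 14 (56.0%) an E2F core. Birc5, Ccnb1, Cenpe, Mad2l1, Nuf2, Nusap1 and Pttg1 held no CHR letters in the window. Of the 36 windows of these genes, 27 had their last 40 bases in a transcript of the gene. The windows of Kif2c, Cdca8, Kif4, Cdca3 and Pttg1 lay inside the gene as counted, and that of Mad2l1 ended before its first base. Presence or absence of letters thus holds for the windows and not for every promoter. A match of letters is a description and was not tied to binding of any factor.

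In control esophagus the 40 genes were expressed at low levels per length. Mean control levels ran from 0.353 RPKM, counts scaled by library size and exon length, for the checkpoint kinase Ttk to 37.4 for Ube2c, with a median of 1.48, and the median over the SDS means was 3.11. After Ube2c came the securin Pttg1 with 13.9 ± 1.99 RPKM (SD, n = 5), the anaphase activator Cdc20 with 7.53 ± 2.02, cyclin Ccnb2 with 3.64 ± 0.765 and Incenp with 3.62 ± 0.582. The last pair did not differ beyond their spread, and the proliferation marker Mki67 stood at 2.43 ± 0.516.

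After SDS, 38 of the 40 genes had a higher fitted level than in controls, but none passed the test. On CPM, counts relative to the TMM-scaled library size, the median log2 fold change of the 40 genes was 1.16, with a range from -0.47 to 1.52, and 31 genes were at least 2-fold higher; over all 17179 genes tested the median was -0.005 and 49.3% lay above 0. With edgeR's quasi-likelihood test and Benjamini-Hochberg adjustment over all genes, 0 of 40 were called higher at 0.05, where 0.623% of all genes were, and 0 were called lower, where 0.425% were. At an unadjusted p under 0.05, 35 of 40 were higher (9.98% of all genes) and 2 lower (8.53%), and the lowest adjusted p was 0.0678, for Mki67. DESeq2 called 26 of the 40 higher, where it called 5.21% of all genes so, and 1 lower (4.55%), and limma-voom called 0, where it called 0.413% of all genes higher.

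The 3 SDS libraries differed widely from each other. SDS library 2 had the highest SDS value for 38 of the 40 genes and SDS library 3 the lowest for 33. The median ratio to the control mean was 1.84 in SDS library 1, 3.67 in SDS library 2 and 1.17 in SDS library 3. Of the 40 genes, 33 exceeded the highest control in SDS library 1, 38 in SDS library 2 and 14 in SDS library 3. Without SDS library 3, edgeR called 30 of the 40 higher, where it called 4.98% of all genes so, and the median log2 fold change was 1.47; without SDS library 2 it called 0 (0.0228% of all genes) and the median was 0.59. Controls also differed in level: control library 4 was the lowest control for 36 genes and control library 2 the highest for 32, with median ratios of 0.682 and 1.24 to the control mean.

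**Figure D1:**
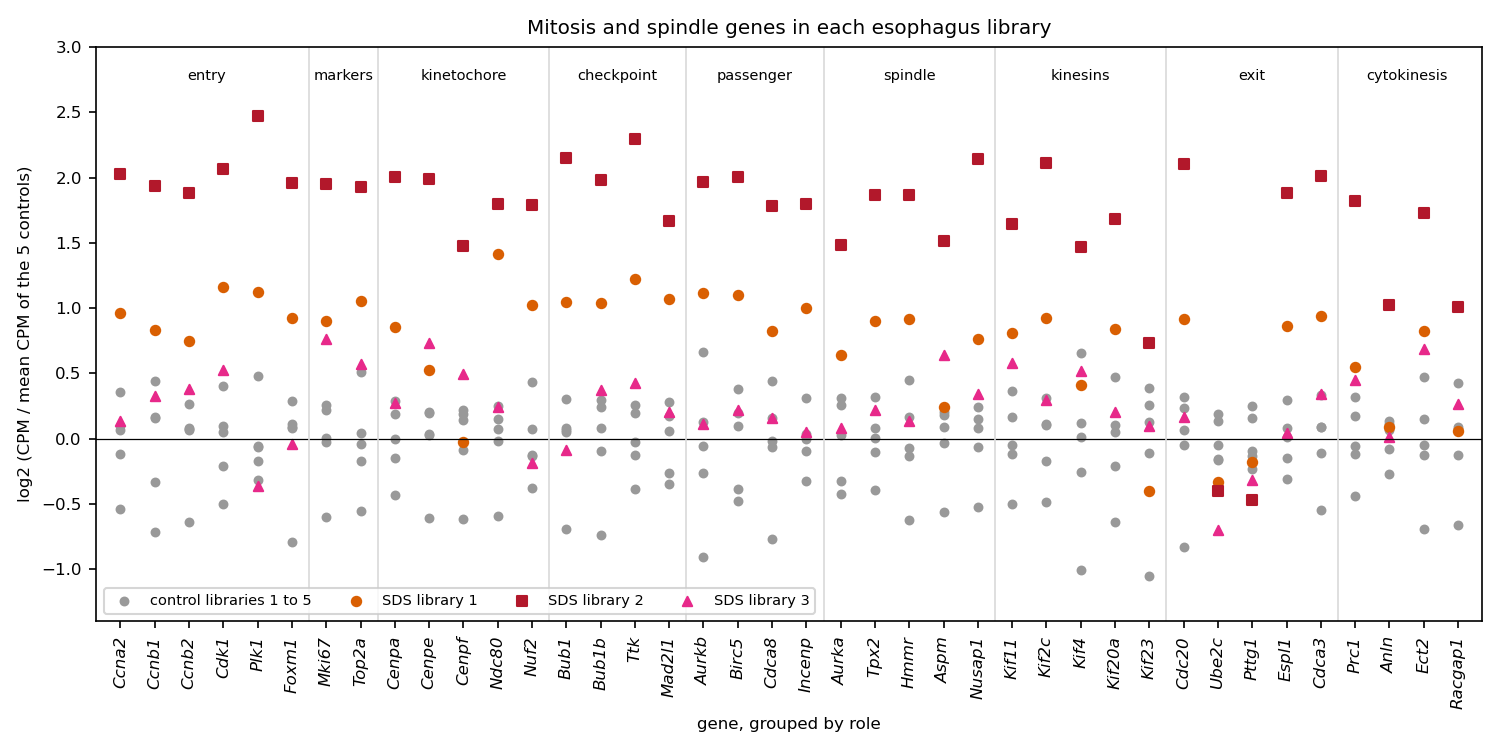
Each point is the log2 ratio of 1 library's CPM to the mean CPM of the 5 controls (vertical axis) for 1 of the 40 genes (horizontal axis, grouped by role); grey circles are controls and coloured symbols the 3 SDS libraries. SDS library 2 lies at the top for 38 genes, SDS library 3 lies among the controls for most, Ube2c lies below the controls and Pttg1 at or below their lower end.

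The SDS and control ranges did not overlap, with every SDS library above every control, for 13 of the 40 genes, against 6.49% of all genes tested. These were Ccnb2, Cdk1, Mki67, Top2a, Cenpe, Bub1b, Ttk, Aspm, Nusap1, Kif11, Cdca3, Prc1 and Ect2. Without control library 2 there were 24 such genes, against 7.71% of all genes, and without SDS library 3 there were 33, against 15.5%. Every SDS library lay below every control for 1 gene, Ube2c, against 6.89% of all genes, and the ranges of the other 26 genes overlapped.

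Among the genes of mitotic entry, all 6 had log2 fold changes between 1.15 and 1.51. Cdk1, the kinase that drives entry (chromosome 10, 69336635 to 69352938, minus strand, build mm10), had 4.95, 6.12, 4.80, 3.28 and 4.00 CPM in control libraries 1 to 5 and 10.3, 19.4 and 6.67 CPM in SDS libraries 1 to 3, a log2 fold change of 1.39 ± 0.33 (SE, adjusted p = 0.0809). Its partner cyclin Ccnb2 had 5.84, 6.69, 5.91, 3.58 and 5.87 CPM in the controls and 9.35, 20.6 and 7.26 CPM after SDS, a log2 fold change of 1.15 ± 0.34 (SE, adjusted p = 0.124). For both genes SDS library 2 stood far above the rest and SDS library 3 only just above the highest control. Cyclin Ccna2, which acts from S phase into early mitosis, had 7.95, 9.53, 7.79, 5.14 and 6.86 CPM in the controls and 14.5, 30.4 and 8.18 CPM after SDS, a log2 fold change of 1.25 ± 0.37 (SE, adjusted p = 0.13). Here SDS library 3 lay within the control range. Cyclin Ccnb1, the polo-like kinase Plk1 and Foxm1, the transcription factor of G2 genes, had log2 fold changes of 1.19, 1.51 and 1.17, and the ranges of all 3 overlapped. Plk1 showed the widest spread of these, with 8.45, 21.5 and 3.00 CPM in SDS libraries 1 to 3, the last below all 5 controls.

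The proliferation markers Mki67, which coats mitotic chromosomes, and Top2a, which untangles DNA, were both more than 2-fold higher in mean after SDS. Mki67 (chromosome 7, 135689784 to 135716361, minus strand) had 24.0, 29.1, 28.4, 16.1 and 24.5 CPM in the controls and 45.6, 94.3 and 41.5 CPM after SDS, a log2 fold change of 1.31 ± 0.29 (SE, adjusted p = 0.0678). Topoisomerase Top2a had 21.1, 30.9, 22.4, 14.8 and 19.3 CPM in the controls and 45.1, 82.5 and 32.3 CPM after SDS, a log2 fold change of 1.30 ± 0.31 (SE, adjusted p = 0.0809). All 3 SDS libraries were above all 5 controls for both genes, with the nearest values in control library 2 and SDS library 3.

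Kinetochore and centromere genes had a median log2 fold change of 1.23 over 5 members. Ndc80, which binds microtubule ends, had 1.81, 1.93, 2.03, 1.22 and 2.17 CPM in the controls and 4.87, 6.36 and 2.17 CPM after SDS, a log2 fold change of 1.29 ± 0.34 (SE, adjusted p = 0.101). The kinetochore motor Cenpe had 5.50, 5.49, 4.91, 3.14 and 4.88 CPM in the controls and 6.88, 19.0 and 7.97 CPM after SDS, a log2 fold change of 1.24 ± 0.34 (SE, adjusted p = 0.11). Cenpa, the histone H3 variant that marks centromeres, had 8.19, 8.81, 7.16, 5.34 and 6.48 CPM in the controls and 13.0, 28.8 and 8.72 CPM after SDS, a log2 fold change of 1.23 ± 0.35 (SE, adjusted p = 0.117). Cenpe alone of these 3 had no overlap, and it was also the one in which SDS library 3 exceeded SDS library 1. Nuf2, the partner of Ndc80, and Cenpf, a large outer kinetochore protein, had log2 fold changes of 1.09 and 0.79 with overlapping ranges.

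The 4 spindle checkpoint genes had a median log2 fold change of 1.30. Ttk (Mps1), the kinase that starts checkpoint signalling, had 1.71, 2.07, 1.33, 1.59 and 1.98 CPM in the controls and 4.05, 8.50 and 2.34 CPM after SDS, a log2 fold change of 1.52 ± 0.38 (SE, adjusted p = 0.0882), the highest of the 40. The inhibitor Mad2l1 had 7.37, 7.94, 6.79, 5.14 and 5.45 CPM in the controls and 13.7, 20.7 and 7.55 CPM after SDS, a log2 fold change of 1.10 ± 0.30 (SE, adjusted p = 0.105). Bub1b (BubR1), which restrains Cdc20, had 7.51, 8.72, 8.38, 4.26 and 6.64 CPM in the controls and 14.6, 27.97 and 9.18 CPM after SDS, a log2 fold change of 1.28 ± 0.35 (SE, adjusted p = 0.109). The groups were apart for Ttk and Bub1b, whereas for Mad2l1 SDS library 3 lay below control library 2. The kinase Bub1 had a log2 fold change of 1.31, and its SDS library 3 value of 1.79 CPM lay inside the control range.

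In the chromosomal passenger complex, which corrects faulty attachments and steers cytokinesis, all 4 genes overlapped between groups. Its survivin subunit Birc5 had 5.87, 6.69, 5.50, 3.68 and 3.93 CPM in the controls and 11.003, 20.6 and 5.96 CPM after SDS, a log2 fold change of 1.29 ± 0.37 (SE, adjusted p = 0.119). The scaffold Incenp had 11.9, 14.4, 10.9, 9.29 and 11.6 CPM in the controls and 23.3, 40.4 and 12.1 CPM after SDS, a log2 fold change of 1.12 ± 0.33 (SE, adjusted p = 0.121). Borealin, Cdca8, had 8.40, 10.2, 7.20, 4.43 and 7.44 CPM in the controls and 13.3, 25.9 and 8.43 CPM after SDS, a log2 fold change of 1.08 ± 0.36 (SE, adjusted p = 0.162). In each, SDS libraries 1 and 2 were above all controls and SDS library 3 was not. The catalytic kinase Aurkb had a log2 fold change of 1.26.

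Spindle pole and assembly genes had a median log2 fold change of 1.15 over 5 members. Tpx2, the activator of Aurora A, had 9.11, 10.7, 8.01, 6.56 and 8.66 CPM in the controls and 16.1, 31.4 and 10.01 CPM after SDS, a log2 fold change of 1.16 ± 0.33 (SE, adjusted p = 0.114). The microtubule bundler Nusap1 had 5.77, 6.16, 4.99, 3.62 and 5.49 CPM in the controls and 8.84, 23.0 and 6.59 CPM after SDS, a log2 fold change of 1.30 ± 0.38 (SE, adjusted p = 0.122). The pole protein Aspm had 6.72, 6.84, 6.31, 4.02 and 5.80 CPM in the controls and 7.03, 17.0 and 9.26 CPM after SDS, a log2 fold change of 0.90 ± 0.29 (SE, adjusted p = 0.153). Nusap1 and Aspm had every SDS library above every control, though SDS library 1 was only just above control library 2 for Aspm. Aurora A itself, Aurka, and the hyaluronan-binding spindle protein Hmmr had log2 fold changes of 0.85 and 1.15 and overlapped.

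The 5 mitotic kinesins were uneven, with log2 fold changes from 0.22 to 1.32. Kif11, which pushes spindle poles apart, had 8.33, 11.1, 9.64, 6.08 and 7.93 CPM in the controls and 15.1, 26.9 and 12.8 CPM after SDS, a log2 fold change of 1.09 ± 0.27 (SE, adjusted p = 0.087). Kif2c, a microtubule depolymerase, had 4.13, 4.77, 4.14, 2.74 and 3.39 CPM in the controls and 7.27, 16.6 and 4.71 CPM after SDS, a log2 fold change of 1.32 ± 0.38 (SE, adjusted p = 0.117). Kif20a, a motor of the central spindle, had 6.25, 8.38, 6.50, 3.89 and 5.22 CPM in the controls and 10.8, 19.4 and 6.97 CPM after SDS, a log2 fold change of 1.04 ± 0.34 (SE, adjusted p = 0.154). The groups were apart for Kif11 only. Kif4, a chromosome-bound motor, had a log2 fold change of 0.89. Kif23, the motor of the centralspindlin complex, had 10.4, 22.9 and 14.7 CPM in SDS libraries 1 to 3 against 6.62 to 18.0 CPM in controls, a log2 fold change of 0.22 ± 0.34 (SE, adjusted p = 0.784), and 2 of its 3 SDS values lay inside the control range.

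Midzone and cytokinesis genes had the lowest median of the 9 roles, 0.80 over 4 members. Ect2, the exchange factor that activates RhoA for the cleavage furrow, had 6.14, 7.66, 5.35, 3.41 and 5.07 CPM in the controls and 9.78, 18.3 and 8.88 CPM after SDS, a log2 fold change of 1.16 ± 0.30 (SE, adjusted p = 0.0994). Prc1, which crosslinks midzone microtubules, had 11.3, 12.5, 9.67, 7.40 and 9.27 CPM in the controls and 14.7, 35.4 and 13.7 CPM after SDS, a log2 fold change of 1.08 ± 0.32 (SE, adjusted p = 0.124). The actin scaffold Anln had 18.2, 17.8, 15.7, 17.3 and 13.7 CPM in the controls and 17.6, 33.6 and 16.7 CPM after SDS, a log2 fold change of 0.45 ± 0.23 (SE, adjusted p = 0.338). Ect2 and Prc1 were above every control in all 3 SDS libraries, while Anln was outside the control range in SDS library 2 only. Racgap1, the partner of Kif23 in centralspindlin, likewise exceeded the controls in SDS library 2 only, with a log2 fold change of 0.51 ± 0.27 (SE, adjusted p = 0.363).

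Mitotic exit genes split. Cdc20, which activates the anaphase-promoting complex, had 16.6, 17.6, 13.6, 7.91 and 14.7 CPM in the controls and 26.6, 60.4 and 15.8 CPM after SDS, a log2 fold change of 1.29 ± 0.40 (SE, adjusted p = 0.143). Cdca3, a substrate adaptor active at mitotic entry, had 6.11, 5.15, 5.17, 3.31 and 4.50 CPM in the controls and 9.31, 19.5 and 6.13 CPM after SDS, a log2 fold change of 1.27 ± 0.35 (SE, adjusted p = 0.112). Cdca3 was above every control in all 3 SDS libraries, and Cdc20 in SDS libraries 1 and 2. Separase, Espl1, which cuts cohesin, had a log2 fold change of 1.12 with overlapping ranges.

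Ube2c and Pttg1, the members with a fold change below 0, were also the most abundant per length. Ube2c, the ubiquitin-conjugating enzyme of the anaphase-promoting complex (chromosome 2, 164769898 to 164778822, plus strand), had 111, 107, 87.2, 94.1 and 86.8 CPM in the controls and 77.1, 73.6 and 59.8 CPM after SDS, a log2 fold change of -0.47 ± 0.13 (SE, adjusted p = 0.114). Pttg1, securin, which holds separase inactive (chromosome 11, 43420250 to 43426251, minus strand), had 33.1, 25.5, 26.1, 31.0 and 23.7 CPM in the controls and 24.6, 20.1 and 22.4 CPM after SDS, a log2 fold change of -0.32 ± 0.14 (SE, adjusted p = 0.257). Ube2c was below every control in all 3 SDS libraries, and Pttg1 was so in SDS libraries 2 and 3. SDS library 2, the highest for the other 38 genes, was not high for either.

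Ube2c lies over Tnnc2, the troponin C gene of fast skeletal muscle, on the opposite strand. Of its 2600 exon bases, 1633 fall within the Tnnc2 span and 592 are shared with Tnnc2 exons. The strand setting of the counting is not stated in the labels, so how reads on these bases were assigned is not known. Tnnc2 had 2400, 2229, 1667, 1849 and 1627 CPM in the controls and 1360, 940 and 1124 CPM after SDS, a log2 fold change of -0.78 ± 0.20 (SE, adjusted p = 0.0972). Ube2c stood at 4.61% to 5.34% of the Tnnc2 CPM in the controls and at 5.67%, 7.84% and 5.32% in SDS libraries 1 to 3. All 9 skeletal muscle markers were lower in fitted level after SDS, with 0 called. Over all genes tested, 49.3% lay above 0 and 0.425% were called lower. The summed level of the 9 markers was 35088 to 47099 CPM in controls and 28675, 23699 and 15491 CPM in SDS libraries. The part of muscle RNA in the Ube2c count was not tested.

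**Figure D2:**
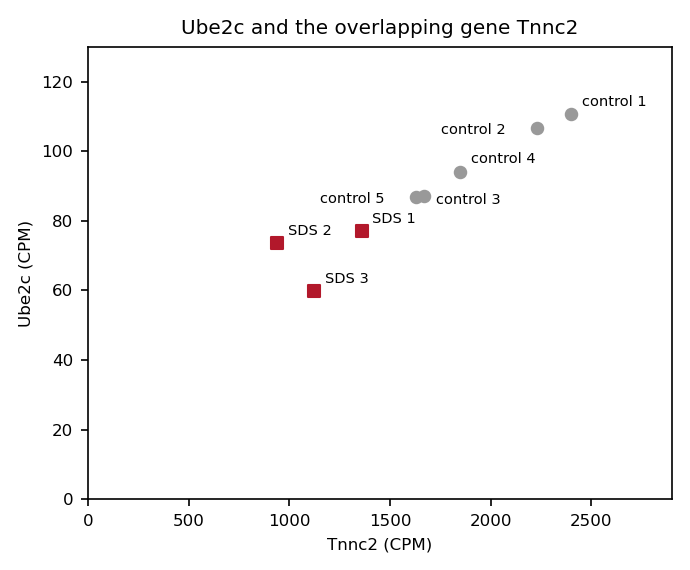
Each point is 1 library, with the CPM of the muscle gene Tnnc2 on the horizontal axis and the CPM of Ube2c on the vertical axis; grey circles are controls and red squares SDS. The 3 SDS libraries have less of both genes than any control, and SDS library 2 has the most Ube2c for its Tnnc2.

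Other members share exon bases with an opposite-strand neighbour: Ccna2 with Exosc9 (510 bases), Kif4 with Pdzd11 (832), Kif20a with Cdc23 (1259), Prc1 with Rccd1 (911), Cdca8 with 9930104L06Rik (232), Nusap1 with Oip5 (172) and Cdc20 with Elovl1 (53). All 8225 exon bases of Prc1 lie within the span of Rccd1. The log2 fold changes of these neighbours, in the same order, were -0.05, -0.05, -0.09, -0.39, -0.14, 0.52 and 0.39, and none was called. Pseudogene copies of Ccnb1, Ccnb2 and Kif4 held 16, 206 and 0 counts over all 8 libraries, so few reads were assigned to them.

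Relative to the basal keratin Krt5 the differences were smaller. Krt5 itself had 1986, 3383, 3216, 1315 and 2913 CPM in controls and 3843, 3632 and 3938 CPM after SDS, a log2 fold change of 0.57 ± 0.30 (SE, adjusted p = 0.352). With Krt5 counts as the library size, the median log2 fold change was 0.53 for the 40 genes and -0.75 for all genes tested, and 35 of 40 lay above 0, where 7.42% of all genes did. On this scale edgeR called 0 of 40 higher (0.0233% of all genes) and 0 lower (0.0233%). At an unadjusted p under 0.05 no member was higher (0.943% of all genes), and Ube2c and Pttg1 were lower (28.4% of all genes), with log2 fold changes of -1.22 ± 0.38 (SE, adjusted p = 0.117) and -1.12 ± 0.43 (SE, adjusted p = 0.152). No gene had every SDS library above every control, against 0.419% of all genes, and Ube2c and Pttg1 had every SDS library below, as did 32.4% of all genes.

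**Figure D3:**
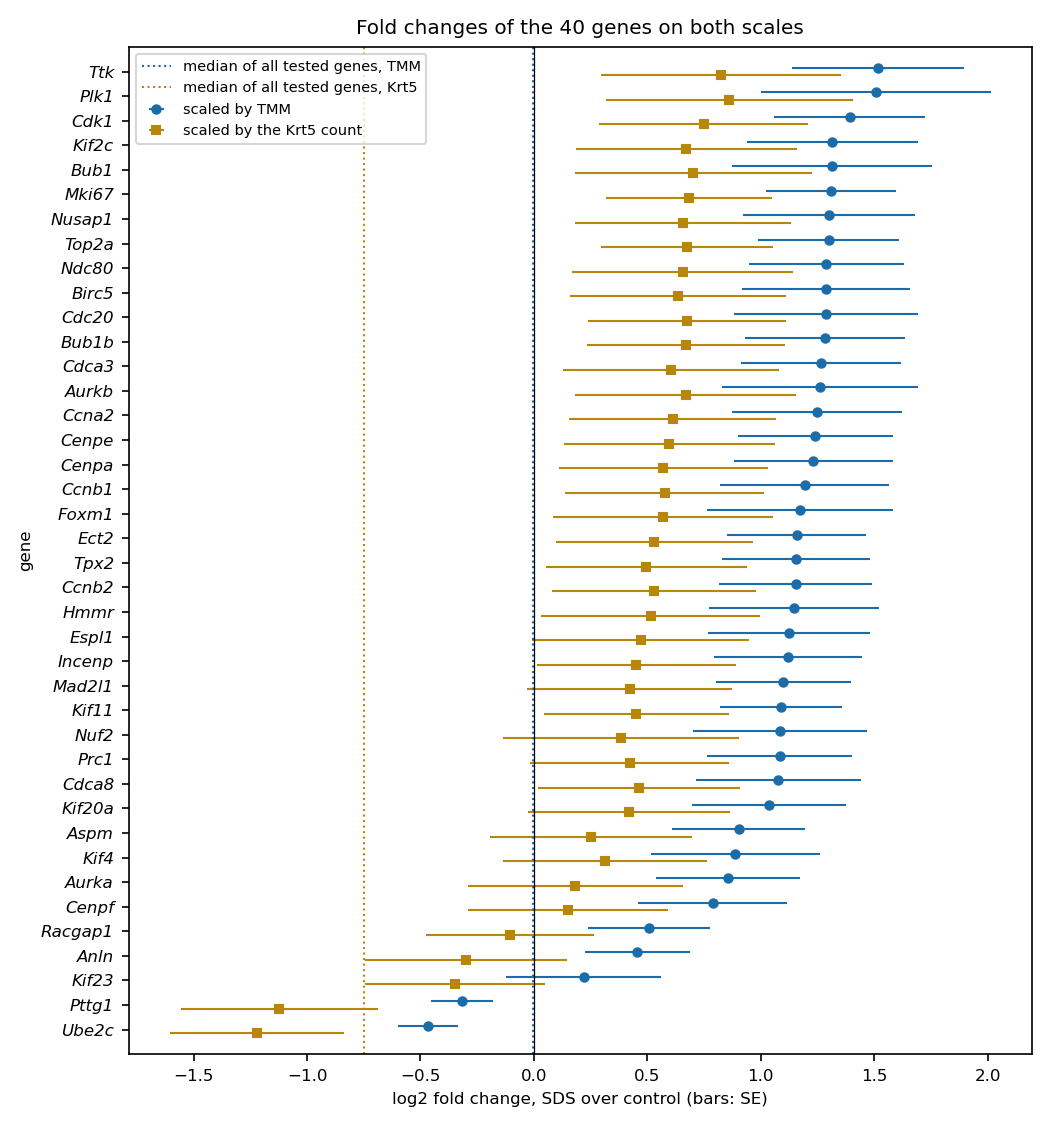
Log2 fold change of SDS over control (horizontal axis) for each of the 40 genes (vertical axis, ordered by the TMM value); circles are scaled by TMM, squares by the Krt5 count, bars are standard errors, and dotted lines are medians of all tested genes on each scale. On the Krt5 scale 5 genes lie below 0: Kif23, Ube2c, Pttg1, Anln and Racgap1.

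Per 1000 Krt5 counts, Mki67 had 12.1, 8.61, 8.84, 12.2 and 8.40 counts in controls 1 to 5 and 11.9, 26.0 and 10.5 in SDS libraries 1 to 3. Cdk1 had 2.49, 1.81, 1.49, 2.49 and 1.37 in controls and 2.69, 5.33 and 1.69 after SDS. SDS library 2 was above all controls for both genes and SDS library 1 for Cdk1 only, and SDS library 3 lay inside the control range for both. Control libraries 1 and 4, which have the least Krt5, were the highest controls on this scale. Without SDS library 2 the median over the 40 genes was -0.11.

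The values differed with the basal reference. Relative to Krt5, the summed level of the 40 genes in SDS libraries 1 to 3 was 0.871, 1.69 and 0.647 times the control mean, and the controls lay between 0.734 and 1.40 times it. Relative to Trp63, the basal transcription factor, it was 1.26, 2.24 and 0.803 times, against 0.763 to 1.21 in controls. Relative to Krt15, a keratin of resting basal cells, it was 2.69, 6.08 and 0.925 times, against 0.780 to 1.21 in controls, and 27 of the 40 genes were then called higher, where 2.08% of all genes were. The abundant Ube2c and Pttg1 weigh on these sums: without both, a choice made after their values were seen, the ratios were 1.05, 2.26 and 0.773 relative to Krt5, 1.51, 2.97 and 0.951 relative to Trp63, and 3.23, 8.06 and 1.10 relative to Krt15. Krt15 had 1279, 1870, 1834, 921 and 1490 CPM in controls and 755, 612 and 1667 CPM after SDS, so it was lowest in the SDS libraries with the highest mitotic levels. Krt14, the partner of Krt5, was called higher on the TMM scale, as were 0.623% of all genes, with a log2 fold change of 2.55 ± 0.47 (SE, adjusted p = 0.0493). It had 325 to 822 CPM in controls and 5036, 4008 and 1094 CPM in SDS libraries 1 to 3. With Krt5 counts as the library size it was not called, with 1.98 ± 0.39 (SE, adjusted p = 0.0711). The median over the 40 genes was 0.93 with Trp63, 1.02 with 7 basal genes and 2.13 with Krt15 as reference.

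**Figure D4:**
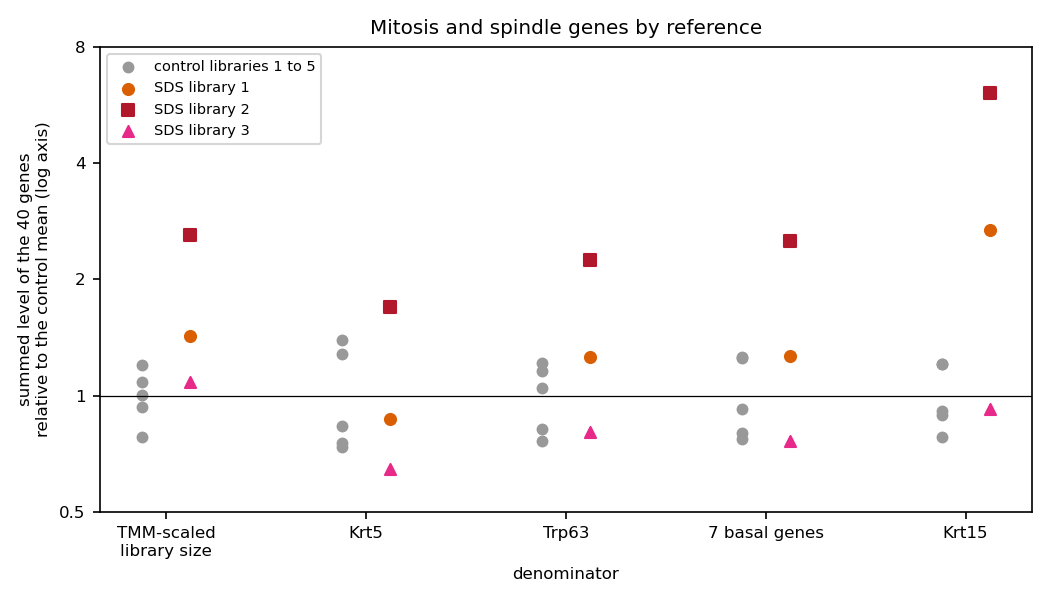
Summed level of the 40 genes in each library relative to the control mean (vertical log axis) with 5 denominators (horizontal axis); grey circles are controls and coloured symbols SDS libraries. SDS library 2 is above the controls with every denominator shown, whereas SDS library 3 is above all controls with none of them and below all controls with Krt5 (0.647 times the control mean) and with 7 basal genes (0.764 times). Without Ube2c and Pttg1 (not shown), SDS library 3 was inside the control range with 7 basal genes (0.908 against 0.819 to 1.24 times). With Krt5 it was then just below the lowest control (0.773 against 0.782 times).

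Of 84 further kinetochore, kinesin, condensin and spindle genes, 4 were called higher and 0 lower, all 84 had a fold change above 0, and the median log2 fold change was 0.93. Over all genes tested, 0.623% were called higher, 0.425% lower and 49.3% lay above 0. The same shares apply to the lists that follow. The 4 called were Smc2, a condensin subunit, Mis18a, which licenses Cenpa loading, Plk4, which starts centriole duplication, and Cenpu, an inner kinetochore protein. Smc2 had 8.06, 9.24, 7.94, 7.74 and 8.12 CPM in the controls and 14.4, 20.1 and 14.3 CPM after SDS, a log2 fold change of 0.99 ± 0.15 (SE, adjusted p = 0.0309). Mis18a had 3.86, 4.19, 4.80, 4.33 and 4.73 CPM in the controls and 7.39, 10.6 and 8.22 CPM after SDS, a log2 fold change of 1.00 ± 0.17 (SE, adjusted p = 0.0399). Plk4 and Cenpu had log2 fold changes of 0.84 ± 0.15 (SE, adjusted p = 0.0482) and 1.27 ± 0.24 (SE, adjusted p = 0.0493). All 4 were above every control in every SDS library, with SDS library 3 close to SDS library 1. The 5 calls over all 6 pathway lists became 0 without control library 1, 2, 3 or 5 and without SDS library 1 or 2, 2 without control library 4 and 50 without SDS library 3. Of all genes, 0.0228% to 0.319% were called in the fits with 0, 0.718% without control library 4 and 6.92% without SDS library 3.

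Core subunits and partners of the anaphase-promoting complex stayed near the background, with 0 of 16 called, 9 above 0 and a median of 0.05. Its subunit Anapc5 had a log2 fold change of -0.34 ± 0.11 (SE, adjusted p = 0.141) and Ube2s, which extends ubiquitin chains, one of 0.38 ± 0.14 (SE, adjusted p = 0.182). Among 19 E2F, pocket protein and MuvB-Myb regulators, which bind E2F and CHR elements, 0 were called and the median was 0.23. Mybl2 (B-Myb), an activator of mitotic genes with MuvB, had 1.40, 3.03, 2.81, 1.39 and 1.95 CPM in controls and 6.01, 6.29 and 3.96 CPM after SDS, a log2 fold change of 1.36 ± 0.32 (SE, adjusted p = 0.0773). The SDS libraries of Mybl2 all lay above the controls, and Lin9, a MuvB core subunit, had 0.52 ± 0.14 (SE, adjusted p = 0.101).

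For 10 G1 cyclins and kinases the median was 0.23 and 0 were called; Ccne1, cyclin E, had a log2 fold change of 0.93 ± 0.25 (SE, adjusted p = 0.101) and Cdk6 one of 0.57 ± 0.15 (SE, adjusted p = 0.103). For 18 tested CDK inhibitors and p53 targets (Cdkn2a did not pass the filter) the median was -0.21 and 0 were called. The p53 target Ccng1 had 275, 288, 245, 277 and 248 CPM in controls and 193, 172 and 169.7 CPM after SDS, a log2 fold change of -0.58 ± 0.11 (SE, adjusted p = 0.0514), and every SDS library was below every control. Bax, a death effector, had a log2 fold change of 0.37 ± 0.08 (SE, adjusted p = 0.0685).

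DNA replication genes had nearly equal sums in the 3 SDS libraries. Of 32, all had a fold change above 0, 1 was called (Tyms, thymidylate synthase, 0.80 ± 0.13 (SE, adjusted p = 0.0368)), the median was 0.59, and 23 had every SDS library above every control. Over all genes tested, 0.623% were called higher, 49.3% lay above 0 and 6.49% had every SDS library above every control. Their summed level was 359, 462, 413, 328 and 401 CPM in controls and 590, 591 and 563 CPM after SDS. For the 40 mitotic genes the sums were 452, 500.1, 419, 326 and 389 CPM in controls and 594, 1090.0 and 452 CPM after SDS. The replication sums of the 3 SDS libraries thus lay within a narrow band above all controls, 581 ± 16.2 CPM (SD, n = 3) against 393 ± 51.7 (n = 5), whereas the mitotic sums were 712 ± 335 against 417 ± 65.7 and that of SDS library 3 lay within the control range. The ratio of the mitotic to the replication sum was 0.970 to 1.26 in controls and 1.01, 1.84 and 0.803 in SDS libraries 1 to 3, so it was above the control range in SDS library 2 and below it in SDS library 3. Without Ube2c and Pttg1 the mitotic sums were 201 to 368 CPM in controls and 492, 996 and 370 CPM after SDS, and the ratio was 0.612 to 0.859 in controls and 0.834, 1.68 and 0.657 after SDS, with SDS library 3 inside the control range.

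**Figure D5:**
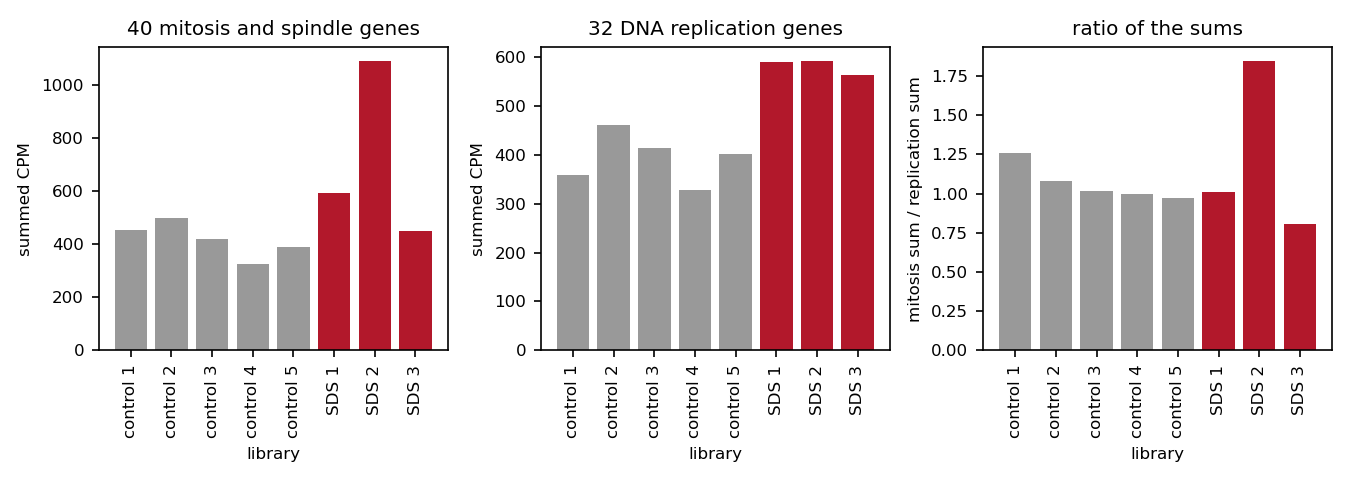
Bars give, for each of the 8 libraries (horizontal axis), the summed CPM of the 40 mitosis and spindle genes, the summed CPM of 32 DNA replication genes and the ratio of both sums (vertical axes from 0); grey bars are controls and red bars SDS. Replication sums of the SDS libraries lie between 563 and 591 CPM, mitotic sums between 452 and 1090.0 CPM.

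Markers of other cell types also differed between the SDS libraries. Summed levels of 6 fibroblast markers were 2029 to 2657 CPM in controls and 2476, 6248 and 999 CPM in SDS libraries 1 to 3, all 6 with a fold change above 0 and 0 called. For 7 macrophage and dendritic cell markers the sums were 81.4 to 134 CPM in controls and 210, 369 and 76.4 CPM after SDS, with 7 of 7 above 0 and 1 called, the Langerhans cell lectin Cd207. Both lists, like the mitotic genes, were highest in SDS library 2 and lowest of the SDS libraries in SDS library 3. Summed T cell markers were 1.81 to 5.14 CPM in controls and 17.8, 17.7 and 4.55 CPM after SDS. Of the 6 T cell markers tested, all had a fold change above 0, with a median log2 fold change of 2.80, and 1 was called higher, Cd3d, a chain of the T cell receptor complex, at 4.04 ± 0.75 (SE, adjusted p = 0.0493). Neutrophil markers summed to 3.48 to 16.2 CPM in controls and 41.4, 62.9 and 14.6 CPM after SDS, with 0 of 2 tested called and Ly6g at no more than 3 counts in every library. B and plasma cell markers summed to 0.953 to 3.32 CPM and 2.91, 5.90 and 9.89 CPM, with 0 of 4 tested called. Control library 4, the lowest control for mitotic genes, had 1315 CPM of Krt5 and the highest adipocyte sum, 4943 CPM, against 38.1 to 1132 CPM in the other controls. The part of these cells in the mitotic levels was not tested.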

How the data were processed

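The authors deposited unnormalised counts, with a table for each library and a row for each gene. The submitters' processing notes name the aligner STAR 2.6.1c, Subread and build mm10, beside bcl2fastq and FastQC; no annotation release or strand setting is given in the sources used here. Symbols matched 48970 of 49315 identifiers. Groups came from the library titles (5 control, 3 SDS).

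The analysis used edgeR 4.0.16 under R 4.3.3. Low genes were removed with filterByExpr (minimum count 10, minimum total 15), which kept 17179. Libraries were scaled by TMM, and groups compared by a two-sided quasi-likelihood test with Benjamini-Hochberg adjustment over all of them, at 0.05. Standard errors (SE) were derived from the F statistic as the fold change over its root. For the Krt5 scale, the Krt5 count replaced the library size. RPKM used the exon lengths of the deposited tables. The common biological coefficient of variation was 29.3%. No library was a copy of another: within groups, chi-square over its degrees of freedom was at least 24.1.

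The members and lists were chosen with earlier results of these data known. Every member could be named; values per library are given for the 3 of smallest p in each role and those below 0, and from each pathway list up to 4 called genes or else the 2 of smallest p. Markers of other cell types were summed per library. Alternatives were other scalings and filters, DESeq2 1.42.0, limma-voom (limma 3.58.1), other basal references, each library left out and a replicate block. The test was also run on simulated data in which genes varied independently of each other. That check does not cover a shift shared by many genes of 1 library.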

Additional observations from a re-analysis of the deposited data

Results flagged for a closer look

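In 43 values examined over the 5 controls, 4 had 1 control library farther from the rest than Dixon's 95% limit allows, where chance flags about 5% of groups. Control library 4 was far below the other controls for Ccnb2 (3.58 CPM), Foxm1 (2.26 CPM) and Cenpe (3.14 CPM). Control library 2 was far above the other controls for Plk1 (5.39 CPM).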

How the results depend on the processing

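The number of genes called among all tested, 180 with edgeR, was 1610 with DESeq2, 4 to 1222 with 1 library left out, 0 with a replicate block over replicates 1 to 3 and 2 for the same 6 libraries unblocked (a fit chosen after seeing the data). Among the 40 genes the calls, 0 in the report, were 27 with DESeq2 and 0 to 30 with 1 library left out, and 0 with every other scaling, filter, tool and the block. Their median log2 fold change of 1.16 was 0.59 to 1.47 with 1 library left out, 0.87 with the block and 1.02 unblocked. The 13 genes with every SDS library above every control, a count added after seeing the data, were 13 to 33 with 1 library left out. Kif23 was the 1 gene whose direction turned, with -0.13 without SDS library 2 (-0.13 to 0.45 with 1 library left out) and -0.033 with the block. Calls in the 6 pathway lists, 5 in the report, were 8 without a filter, 68 with DESeq2, 0 to 50 with 1 library left out, 0 with the block and 0 unblocked. Of all genes, 1.05% were called in the report, 0.845% without a filter, 9.76% with DESeq2 and 0.0228% to 6.92% with 1 library left out. With 1 library left out, every SDS library lay above every control for 7.36% to 15.5% of all genes. On the Krt5 scale the calls, 0 in the report, were 27 with Krt15 as reference and 1 with the block, and 0 with 1 library left out; the median of 0.53 was 2.13 with Krt15 and -0.11 to 0.82 with 1 library left out; the genes with every SDS library above every control, 0 in the report, were 9 with Krt15, 1 with Trp63, 1 with 7 basal genes and 0 to 6 with 1 library left out. On that scale, 2.08% of all genes were called with Krt15, 5.98% with the block and 0% to 3.78% with 1 library left out. Every SDS library lay above every control for 6.9% of all genes with Krt15, 1.32% with Trp63 and 1.16% with 7 basal genes. With 1 library left out that share was 0.428% to 2.41%. The causes were not tested. Same-numbered libraries correlated at 0.43, -0.02 and 0.39 in their deviations from the group means. Libraries of unlike number correlated at -0.55 (control 3 with SDS 1) to 0.56 (control 4 with SDS 1), so the numbers were not taken to pair them. In the main fit 31 of the 40 genes were at least 2-fold higher and 0 were called, and each had at least 35 counts in every library. Why none was called was not tested.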

Other observations

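Genes outside the cell cycle also carry the CHR and CCAAT letters. Over the 851 tested genes whose RefSeq window held both a CHR and a CCAAT box, the median log2 fold change was 0.04 and 55.2% lay above 0, with 4 called higher and 5 lower. Over all 12255 tested genes with a window the median was -0.00 and 49.7% lay above 0, with 81 called higher and 56 lower. Leaving out the listed cell cycle genes, 786 genes with both elements remained, with a median of 0.01.

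Summed over 9 genes, basal keratinocyte markers were 3437 to 7319 CPM in controls and 8209 to 10664 CPM after SDS. Krt14 was called higher and 5 of 9 lay above 0, near the share of all genes. Over all genes tested, 0.623% were called higher, 0.425% lower and 49.3% lay above 0. The 8 suprabasal markers summed to 52566 to 158431 CPM in controls and 92410 to 163296 CPM after SDS, with 0 called. Smooth muscle (2722 to 7277 CPM in controls, 1761 to 3769 CPM after SDS), endothelium (123 to 251 and 114 to 226 CPM) and germinal centre B cell markers (58.1 to 86.3 and 62.4 to 80.6 CPM) overlapped between groups, as did bone marrow progenitor markers (81.4 to 364 and 74.1 to 387 CPM) and adipocyte markers (38.1 to 4943 and 93.9 to 1417 CPM). Thyroid, tracheal ciliated and gastric markers summed to at most 5.34, 1.502 and 0.589 CPM in any library.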
